A study of Mus musculus with 2 samples.

Results

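The translation factors described here are 64 autosomal protein-coding mouse genes whose GENCODE symbols begin with Eif and a digit, or with Eef1 or Eef2. They were chosen by symbol alone from the 20337 autosomal protein-coding genes in the files. The rule takes in the initiation and elongation factors together with enzymes and inhibitors named after them. In the annotation 65 genes matched, and Eef1akmt4 was not analysed here. RNA was measured by RNA-seq in 2 laser-captured libraries, pool 1 and pool 2, each of 50 Purkinje cells, the inhibitory neurons that carry the output of the cerebellar cortex. Both came from adult male wild-type mice of the C57Bl6 background (B6NCrl in the source label), aged 8 months, with no treatment named, and both received synthetic spike-in RNAs. The pools form 1 group, so nothing is compared between conditions and no p-value is given. The labels share a donor identifier between the pools, which leaves it unstated whether they are separate animals, and every SD below (n = 2) may be a technical spread.

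The libraries held 23830685 and 27907662 expected counts, of which spike-ins took 1.40% in pool 1 and 0.940% in pool 2. All 11 Purkinje cell markers on the list were detected, led by Pcp4, a calmodulin-binding peptide, at 16756 and 17167 TPM (relative transcript abundance, a per-length scale). In pool 2, 7 of these 11 were lower and 4 higher, with a median log2 difference in TPM + 1 of -0.33. Markers of neighbouring cells were present as well. The 9 markers of Bergmann glia and astrocytes summed to 4005 and 4356 TPM, led by the lipid carrier Apoe at 1825 and 2492 TPM. Of these 9, 5 were lower in pool 2 and 4 higher, with a median log2 difference of -0.28. The summed level of the 7 granule cell markers was 107 and 137 TPM, that of the 5 oligodendrocyte markers 171 and 182 TPM, and that of the 5 blood markers 651 and 2274 TPM. Of the 5 oligodendrocyte markers, 3 were lower in pool 2 and 2 higher. The 4 markers of molecular layer interneurons summed to 46.2 and 64.7 TPM. Prkcd among them was at 9.83 and 38.65 TPM, while 2 of the 4 were lower in pool 2. The 6 microglial markers summed to 19.4 and 28.9 TPM and the 5 of endothelial cells and pericytes to 93.9 and 124 TPM. No listed marker was at 0 in both pools. The part of these other cells in the levels below was not tested, and in such pools fewer cells of a type and less RNA per cell cannot be told apart.

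Translation begins when the small ribosomal subunit, loaded with eIF1, eIF1A, eIF3, eIF5 and a complex of eIF2, GTP and initiator tRNA, is brought to a capped mRNA by eIF4F, which joins the cap-binding protein eIF4E, the scaffold eIF4G and the RNA helicase eIF4A. After the subunits join with the help of eIF5B, eEF1A delivers each charged tRNA, the eEF1B complex recharges eEF1A with GTP, and eEF2 moves the ribosome along. Cells slow initiation by phosphorylating the alpha subunit of eIF2, which blocks its exchange factor eIF2B, and slow elongation by phosphorylating eEF2. Neurons are known for making eEF1A2 in place of eEF1A1 as they mature, as muscle does.

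Several factors exist as paralogs of nearly the same protein, and the balance between them is only as good as the differences in their mRNAs. The start of the aligned coding sequence is therefore shown for 4 pairs, as the first window of 90 bases that aligned without a gap. The sequences are GENCODE M21 coding sequences on GRCm38 (mm10), written 5′ to 3′ in the sense of the mRNA, with capitals at the bases that differ within a pair.
Eef1a1: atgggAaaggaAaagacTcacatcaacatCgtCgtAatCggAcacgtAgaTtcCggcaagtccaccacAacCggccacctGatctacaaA
Eef1a2: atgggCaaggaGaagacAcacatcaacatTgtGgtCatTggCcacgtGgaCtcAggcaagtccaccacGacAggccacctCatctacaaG
Eif4a1: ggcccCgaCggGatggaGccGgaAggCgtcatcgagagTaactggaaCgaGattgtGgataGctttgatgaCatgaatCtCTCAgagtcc
Eif4a2: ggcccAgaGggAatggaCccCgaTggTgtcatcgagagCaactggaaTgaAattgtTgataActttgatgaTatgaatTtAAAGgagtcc
Eif5a: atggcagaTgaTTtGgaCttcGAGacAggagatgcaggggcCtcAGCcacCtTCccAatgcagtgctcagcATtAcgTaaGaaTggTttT
Eif5a2: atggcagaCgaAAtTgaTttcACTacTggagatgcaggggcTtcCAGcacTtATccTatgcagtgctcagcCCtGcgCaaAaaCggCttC
Eif1: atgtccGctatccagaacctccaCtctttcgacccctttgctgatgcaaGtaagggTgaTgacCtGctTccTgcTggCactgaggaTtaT
Eif1b: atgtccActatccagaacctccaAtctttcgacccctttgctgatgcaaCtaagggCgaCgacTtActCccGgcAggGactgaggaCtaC
The windows cover coding positions 1 to 90, except for Eif4a1 (37 to 126) and Eif4a2 (43 to 132). They differ at 15 bases in the eEF1A pair, 18 in the eIF4A pair, 25 in the eIF5A pair and 13 in the eIF1 pair. Over whole coding sequences the identity was 79.96% of 1392 aligned positions for Eef1a1 and Eef1a2, with no shared run longer than 23 bases, 77.8% for Eif4a1 and Eif4a2, 72.7% for Eif5a and Eif5a2, and 81.3% for Eif1 and Eif1b. The near copies Eif3j1 and Eif3j2 stand apart, with 99.2% identity and a shared run of 784 bases. The genes of the eEF1A pair lie at chr9:78478449-78489151 (Eef1a1) and chr2:181147653-181157014 (Eef1a2), both on the minus strand.

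Translation factors were expressed broadly and at high levels. Both pools had a TPM of 1 or more for 62 of the 64 genes (96.9%), beside 52.6% of all autosomal protein-coding genes. A mean TPM of at least 100 was reached by 15 of 64 (23.4%), beside 5.94% of all. The median level of the 64 genes was 41.3 TPM in pool 1 and 35.2 TPM in pool 2 (38.2 ± 4.27 TPM), and that of all autosomal protein-coding genes was 1.66 and 1.61 TPM. Among genes detected in both pools the medians were 43.5 and 36.0 TPM for the factors and 12.5 and 11.5 TPM for all. Together the 64 genes took 0.592% and 0.557% of the TPM of all mouse genes, and the leading 12 held 64.0% and 63.8% of that sum.

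The leading 12 mix elongation and initiation. In order of mean TPM they were Eif1 (528), Eif5a (427), Eif1b (407), Eef1a1 (373), Eif4a2 (333), Eif5 (283), Eif3k (275), Eef1b2 (247), Eef1akmt1 (234), Eif3i (178), Eif3g (162) and Eif4g2 (139). Neighbours in this order often did not separate: Eif1b lay above Eif5a in pool 1 (407 and 405 TPM) and below it in pool 2 (406 and 448 TPM), and Eif5 and Eif3k also changed places between the pools. Eif1 had the highest gene total in both pools. On protein-coding transcripts alone Eif5a had the highest mean (427 TPM), and Eif1 took rank 8 (186 TPM).

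**Figure D1:**
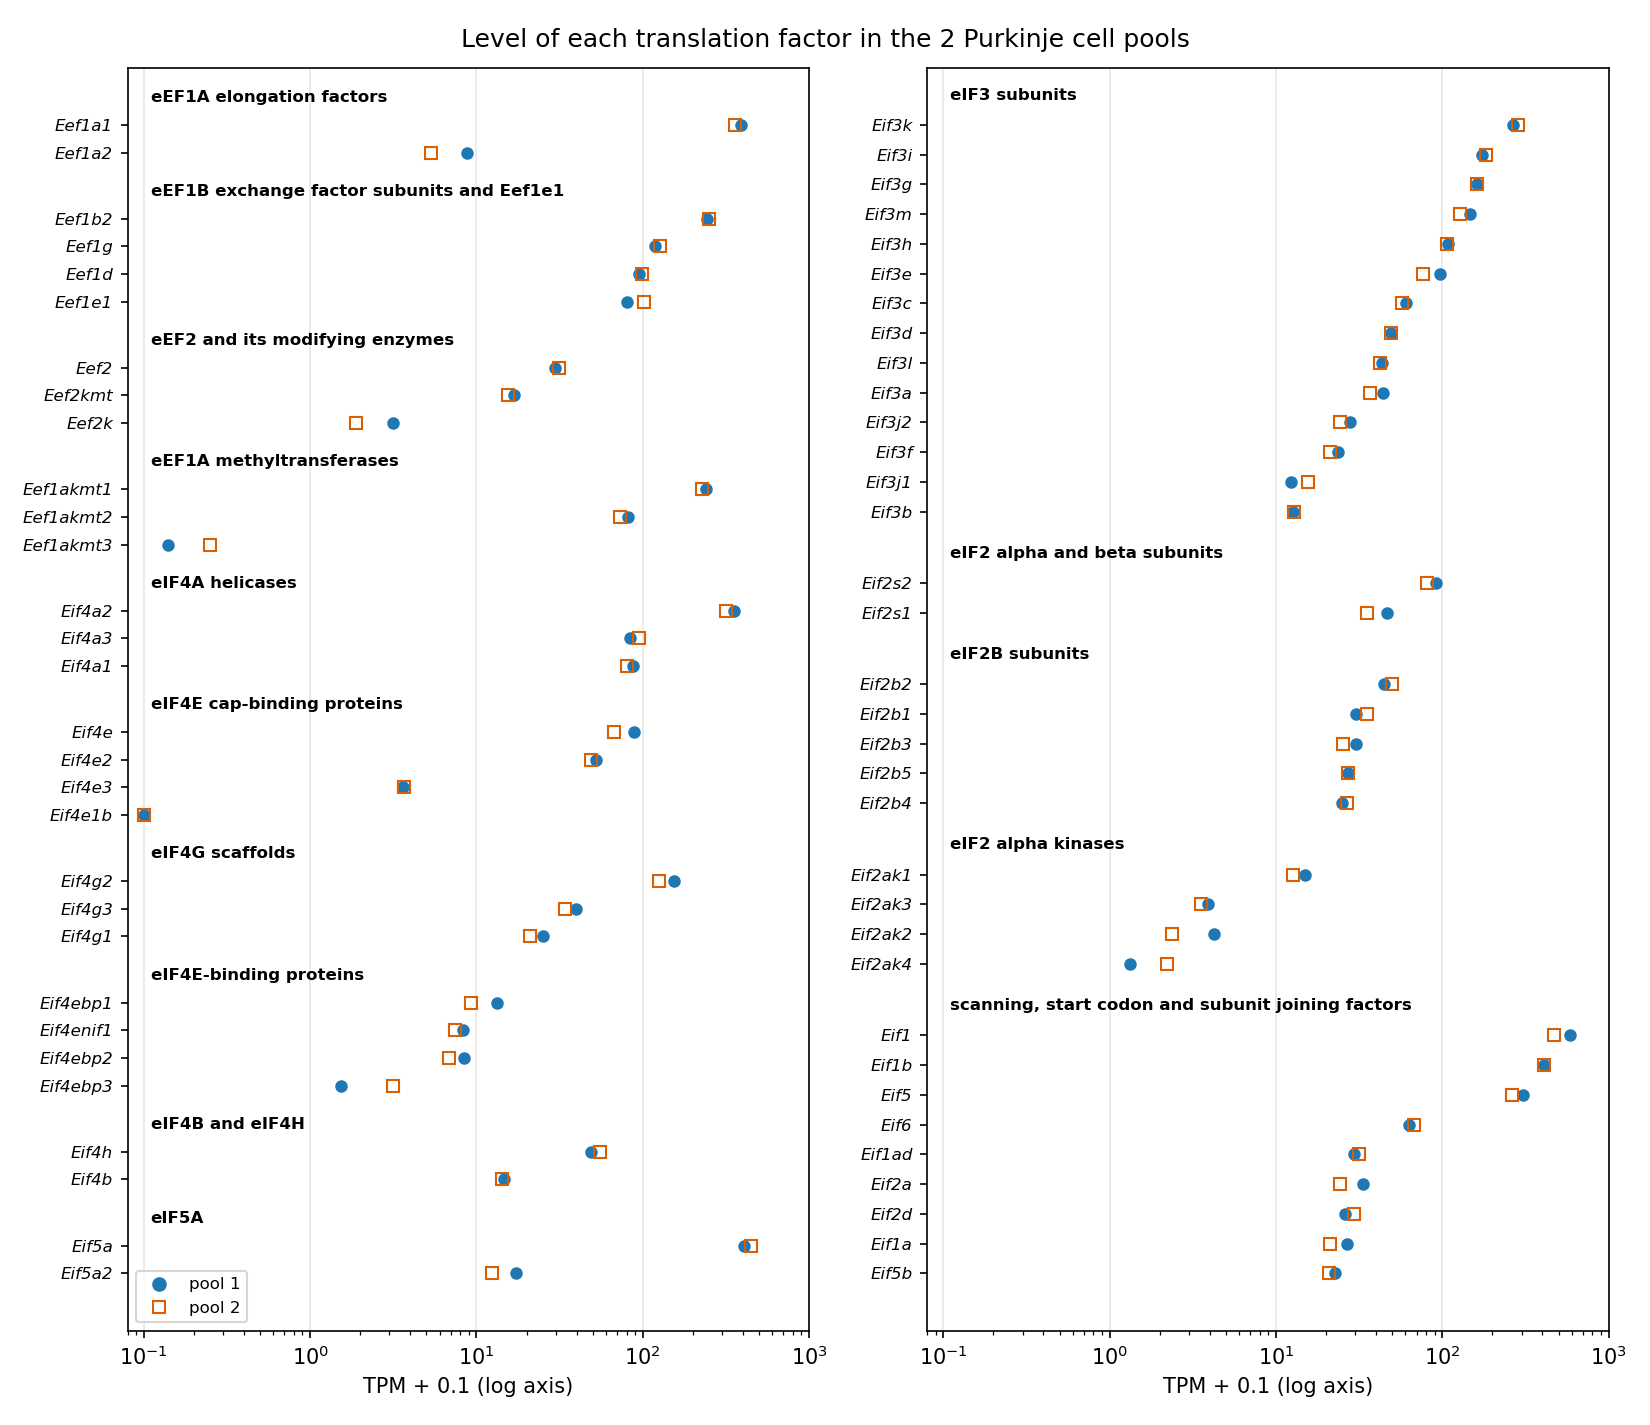
Level of each of the 64 translation factors as TPM + 0.1 on a log axis, grouped by role, with a filled circle for pool 1 and an open square for pool 2. The circles and squares lie close together for most genes above 10 TPM, Eef1a2 sits far below Eef1a1, and Eif4e1b is listed at 0 in both pools.

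Among the elongation factors, the eEF1A pair was the most unequal. Eef1a1, which encodes the widely expressed carrier of charged tRNAs, was at 387 TPM in pool 1 and 359 TPM in pool 2 (373 ± 19.6 TPM). Eef1a2, the form known from mature neurons and muscle, was at 8.66 and 5.20 TPM (6.93 ± 2.45 TPM). Eef1a1 was thus 44.7 times Eef1a2 in pool 1 and 69.1 times in pool 2, and Eef1a2 made up 2.19% and 1.43% of the pair. The levels of this pair do not come near each other in either pool. They rest on 10233 and 12067 expected counts for Eef1a1 and on 341 and 260 for Eef1a2. The 95% Poisson intervals of Eef1a2, which cover counting error only, ran from 7.77 to 9.63 TPM in pool 1 and from 4.59 to 5.87 TPM in pool 2, without overlap. The deposited posterior SD from dividing shared reads was 5.61 and 5.03 counts for Eef1a1 and 0 for Eef1a2. Counting only transcripts annotated as protein-coding, Eef1a1 was 31.8 and 49.1 times Eef1a2. Processed pseudogenes of Eef1a1 under other symbols were not examined, and the part of glial RNA in Eef1a1 was not tested.

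The subunits of the exchange factor eEF1B were all abundant. Eef1b2, a subunit with the exchange activity, stood at 243 and 250.0 TPM (247 ± 4.89 TPM). Of this, 123 and 124 TPM came from protein-coding transcripts, and transcripts marked for nonsense-mediated decay took 48.3% and 48.2%. Eef1g, the structural gamma subunit, was at 119 and 126 TPM, and Eef1d, the delta subunit, at 94.8 and 98.4 TPM. On protein-coding transcripts Eef1g was at 104 and 114 TPM, close below Eef1b2. Eef1e1, better known as a part of the multi-tRNA synthetase complex than as an elongation factor, was at 79.99 and 102 TPM. Each of these 4 genes had a higher TPM in pool 2, with a log2 difference of 0.35 for Eef1e1 and 0.04 to 0.09 for the others. Adjusting for transcript length and expression put Eef1b2 and Eef1d slightly below 0 (log2 differences of -0.04 and -0.0013), and Eef1e1 at 0.30. Ndufs1 overlaps Eef1b2 on the opposite strand and had 168 and 124 TPM. With the strand setting not given in the sources used here, reads of either gene in the overlap cannot be told apart, and the same holds for the overlapping genes named below.

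Eef2, the translocase, was modest in level for an elongation factor. It stood at 29.6 and 31.4 TPM (30.5 ± 1.29 TPM), so that Eef1a1 was 13.1 and 11.4 times Eef2. That ratio was 9.32 and 8.14 on protein-coding transcripts, and 5.81 and 5.09 in expected counts, which are not per length. Eef2kmt, a lysine methyltransferase of eEF2, was at 16.6 and 15.3 TPM, and Alg1 overlaps it, with 23.1 and 28.3 TPM. Eef2k, the calcium- and calmodulin-dependent kinase that inhibits eEF2, was low at 3.07 and 1.78 TPM. Its expected counts, not scaled for library size, were 159 and 194. With TMM scaling of the counts its log2 difference was 0.03. In pool 1, 1.21 of its 3.07 TPM came from Eef2k-209, a 203-nt transcript model listed at 0 in pool 2, while the full-length Eef2k-201 was at 1.19 and 1.07 TPM.

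The enzymes that methylate eEF1A ran from very high to undetected. Eef1akmt1 was at 241 and 227 TPM (234 ± 9.40 TPM), rank 9 of the 64, and Eef1akmt2 at 81.0 and 73.2 TPM. Eef1akmt3 was not detected above the threshold, with 2 and 10 counts (0.040 and 0.15 TPM, 95% Poisson intervals 0.0048 to 0.14 and 0.072 to 0.28 TPM).

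In the cap-binding complex, the helicase paralog Eif4a2 led. Eif4a2, a paralog known to be abundant in brain, was at 352 and 315 TPM (333 ± 26.0 TPM), and Eif4a1, the ubiquitous paralog, at 87.3 and 80.3 TPM (83.8 ± 4.94 TPM). Eif4a2 was 4.03 and 3.92 times Eif4a1, a balance that hardly moved between the pools. The ratio was 2.64 and 2.77 on protein-coding transcripts, and 4.20 and 4.14 in expected counts. Eif4a3, which belongs to the exon junction complex and not to eIF4F, was at 83.1 and 94.96 TPM. It lay below Eif4a1 in pool 1 and above it in pool 2, so these neighbours did not separate.

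The cap-binding protein and the eIF4G scaffolds were lower than the helicase paralog Eif4a2. In gene totals Eif4g2 was above Eif4a1 in both pools. Eif4e was at 88.4 and 67.1 TPM (77.8 ± 15.1 TPM). Eif4e2, a homolog that represses translation of selected mRNAs, was at 52.4 and 48.7 TPM, and Eif4e3 at 3.54 and 3.56 TPM. Eif4e1b, known from oocytes, had 0 counts in both pools, and this allows up to 0.17 TPM in pool 1 and 0.14 TPM in pool 2 at 3 counts per library. Among the scaffolds, Eif4g2 (DAP5), which lacks the cap-binding protein's docking site and works without it, was at 154 and 124 TPM (139 ± 20.8 TPM). Eif4g3 was at 39.4 and 34.1 TPM and Eif4g1, the general scaffold, at 24.9 and 20.8 TPM. The order Eif4g2, Eif4g3, Eif4g1 held in both pools for gene totals. On protein-coding transcripts alone Eif4g3 lay below Eif4g1, at 0.938 and 0.626 times its level. That order depends on transcript models with an incomplete coding sequence. Such models took 71.3% and 80.8% of Eif4g1 and 13.8% and 9.31% of Eif4g3. Eif4h and Eif4b, which stimulate the helicase, were at 49.0 and 55.5 TPM and at 14.5 and 14.1 TPM.

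The inhibitors that hold eIF4E away from eIF4G were much lower than their target. Eif4ebp1 was at 13.1 and 9.19 TPM and Eif4ebp2, the form best known from brain, at 8.36 and 6.71 TPM. Eif4enif1, which carries eIF4E into the nucleus, was at 8.25 and 7.32 TPM, and Drg1, which overlaps it, at 92.5 and 75.8 TPM. Eif4ebp3 was at 1.43 and 3.06 TPM on 18.3 and 49.7 counts, the least expressed of these genes.

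**Figure D2:**
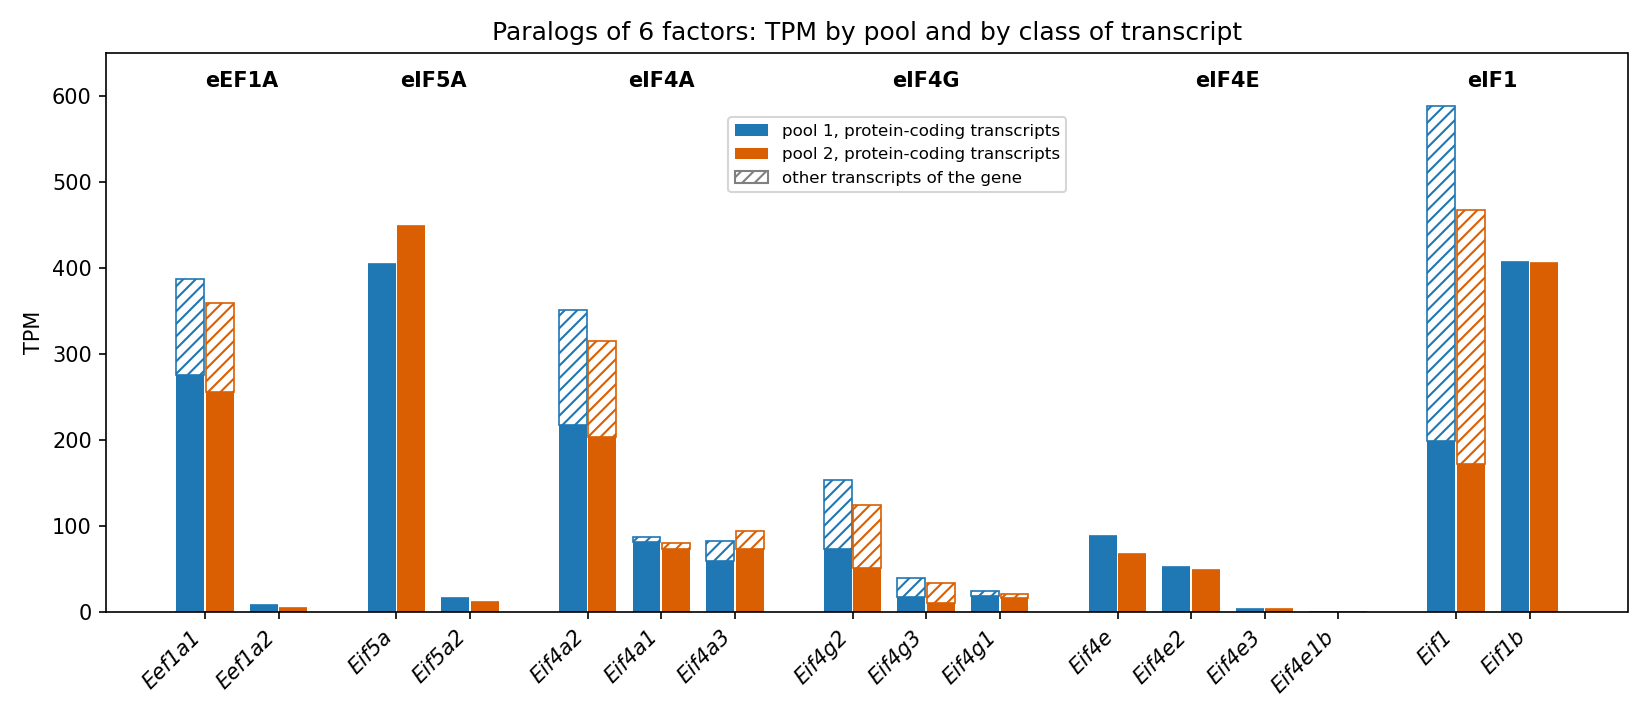
TPM of the paralogs of 6 factors in pool 1 (blue) and pool 2 (orange), with solid bars for transcripts annotated as protein-coding and hatched bars for other transcripts of the gene. Eef1a1, Eif5a and Eif4a2 stand well above their paralogs, and the hatched part is largest in Eif1, followed by Eif4a2 and Eef1a1.

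Eif5a, which helps the ribosome over stretches that are slow to form peptide bonds and is known for the unusual amino acid hypusine, was at 405 and 448 TPM (427 ± 30.8 TPM). Eif5a2 was at 17.1 and 12.3 TPM (14.7 ± 3.37 TPM). Eif5a was 23.7 and 36.3 times Eif5a2, so this pair, like the eEF1A pair, was more unequal in pool 2. In expected counts, which are not per length, the ratio was 5.36 and 8.24, since Eif5a2 had a mean transcript length of 5027 nt and Eif5a of 1216 nt. The log2 difference of pool 2 from pool 1 was -0.44 for Eif5a2, and -0.18 after adjustment for transcript length and expression. For Eef1a2 these values were -0.64 and -0.62.

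The subunits of eIF3, the largest initiation factor, spanned a wide range. Eif3k was highest at 266 and 283 TPM (275 ± 12.2 TPM) and Eif3b had the lowest mean, with 12.5 and 12.8 TPM (12.6 ± 0.233 TPM), a ratio of mean levels of 21.7. In pool 1 Eif3j1 was lower still at 12.2 TPM, and on protein-coding transcripts it was the lowest subunit, at 9.77 and 8.69 TPM. The structural core and the outer module each held high and low subunits. Of the 8 subunits of the structural core, Eif3k, Eif3m (146 and 128 TPM), Eif3h (109 and 107 TPM) and Eif3e (96.7 and 76.1 TPM) were higher. Eif3c (60.6 and 57.2 TPM), Eif3a (43.9 and 36.6 TPM), Eif3l (43.2 and 42.1 TPM) and Eif3f (23.6 and 21.1 TPM) were lower. The module of Eif3b, Eif3g and Eif3i, which moves during scanning, held the low Eif3b beside Eif3i at 173 and 183 TPM and Eif3g at 161 and 163 TPM. Eif3d, which can itself bind the cap on some mRNAs, was at 49.4 and 49.0 TPM. The order of the subunits was the same in both pools down to Eif3d, while Eif3l and Eif3a did not separate.

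Eif3j1 and Eif3j2 encode the loosely bound j subunit. They were at 12.2 and 15.5 TPM and at 28.0 and 24.3 TPM. They share a run of 784 coding bases. The deposited posterior SD of Eif3j1 was 28.0 and 30.3 counts on 1054 and 1247, and that of Eif3j2 27.4 and 29.5 counts on 1266 and 1391. These were the largest of the 64 genes, and their link to the shared run was not tested. Eif3j2 was 2.30 and 1.57 times Eif3j1 in gene totals, 2.86 and 2.79 times on protein-coding transcripts, and 1.20 and 1.12 times in expected counts. The non-coding Eif3j1-202, of 594 nt, took 19.8% of Eif3j1 in pool 1 and 43.7% in pool 2.

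The factors around eIF2 were closer together. Eif2s1, the phosphorylated alpha subunit, was at 46.3 and 35.3 TPM and Eif2s2, the beta subunit, at 91.6 and 80.8 TPM. The gamma subunit is encoded on the sex chromosomes and falls outside the rule. The 5 subunits of the exchange factor eIF2B, mutated in the leukodystrophy known as vanishing white matter disease, lay within a factor of 1.82. Eif2b2 was at 44.3 and 49.8 TPM, Eif2b1 at 30.3 and 35.2 TPM, Eif2b3 at 30.1 and 25.2 TPM, the catalytic subunit Eif2b5 at 27.0 and 26.9 TPM, and Eif2b4 at 24.9 and 26.7 TPM. Below Eif2b2 these subunits changed order between the pools. On protein-coding transcripts the mean of Eif2b2 was 32.2 TPM and that of Eif2b1 32.6 TPM, so these did not separate. Snx17 overlaps Eif2b4 and had 46.6 and 37.1 TPM.

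The eIF2 alpha kinases were among the lowest members. Eif2ak1 (HRI), activated by lack of heme, was at 14.8 and 12.5 TPM, with the overlapping gene Aimp2 at 49.1 and 51.2 TPM. Eif2ak3 (PERK), the sensor of the endoplasmic reticulum, was at 3.81 and 3.44 TPM. Eif2ak2 (PKR), the sensor of double-stranded RNA, was at 4.13 and 2.26 TPM, and Eif2ak4 (GCN2), the sensor of amino acid scarcity, at 1.22 and 2.12 TPM. In gene totals Eif2ak2 was above Eif2ak3 in pool 1 and below it in pool 2, while Eif2ak1 was highest and Eif2ak4 lowest in both. A retained-intron transcript, Eif2ak2-204, took 58.0% and 47.3% of Eif2ak2. On protein-coding transcripts Eif2ak2 was at 1.74 and 1.10 TPM, below Eif2ak3 (3.61 and 3.01 TPM) in both pools and below Eif2ak4 (2.13 TPM) in pool 2.

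**Figure D3:**
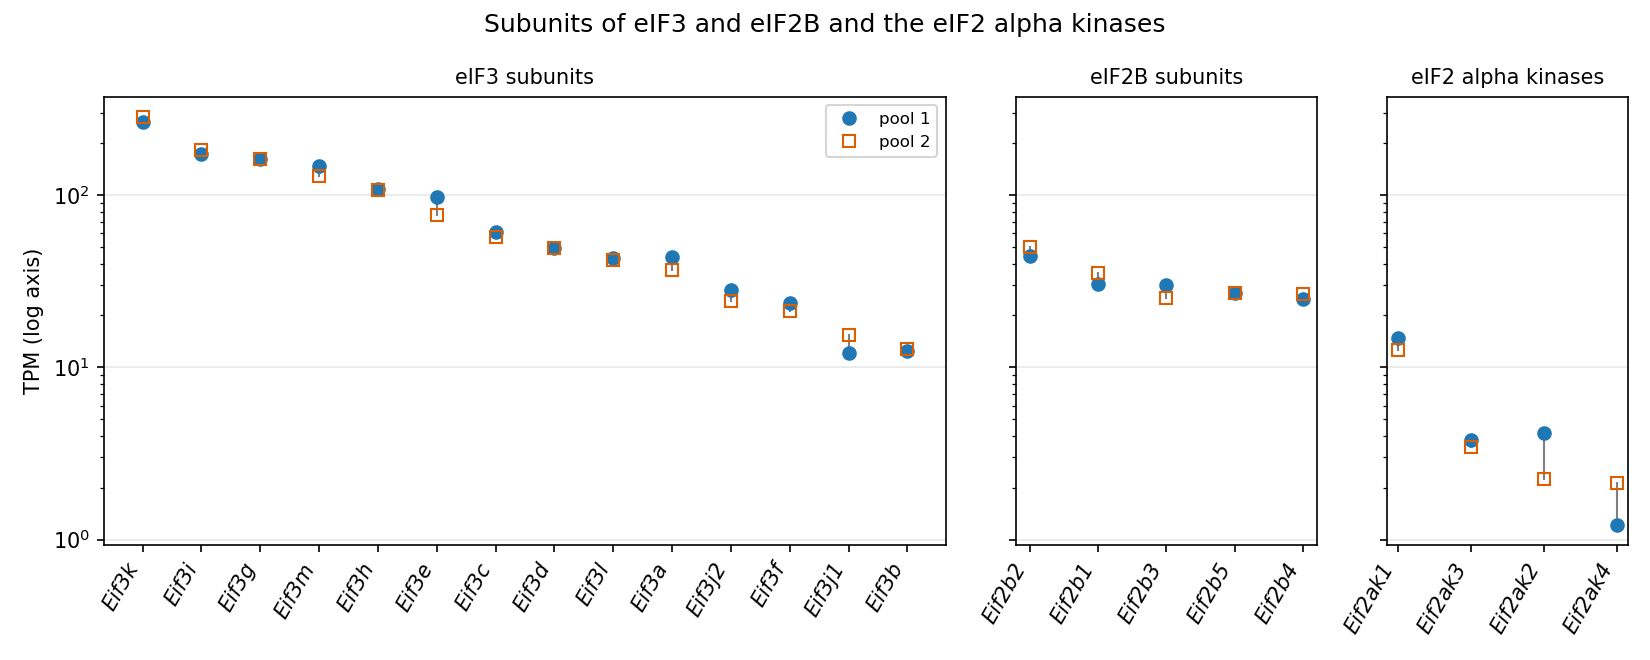
TPM on a log axis of the eIF3 subunits, the eIF2B subunits and the eIF2 alpha kinases, with a filled circle for pool 1 and an open square for pool 2. The eIF3 subunits run from 275 to 12.6 TPM on average, the eIF2B subunits lie within a factor of 1.82, and 3 of the 4 kinases lie below 5 TPM.

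Eif1, Eif1b and Eif5, which act in scanning and start codon choice, were among the leading 12. Eif1, which guards against wrong start codons, was at 589 and 468 TPM (528 ± 85.6 TPM), and its paralog Eif1b at 407 and 406 TPM (407 ± 0.495 TPM). Eif5, which triggers GTP hydrolysis by eIF2, was at 304 and 263 TPM (283 ± 29.0 TPM). Eif6, which keeps large subunits from joining too early, was at 62.6 and 67.7 TPM. The others were lower. Eif2a and Eif2d, which can bring initiator tRNA by other routes, were at 33.1 and 24.2 TPM and at 25.8 and 29.4 TPM, with the overlap of Serp1 on Eif2a at 27.1 and 25.4 TPM. Eif1ad was at 29.5 and 31.4 TPM, beside the overlapping gene Banf1 at 259.7 and 305 TPM. Eif1a was at 26.7 and 21.2 TPM and Eif5b, the GTPase of subunit joining, at 22.4 and 20.8 TPM, beside the overlapping gene Rev1 at 21.6 and 23.6 TPM.

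The transcripts behind these totals were not all coding. Protein-coding transcripts gave 82.3% and 84.0% of the summed TPM of the 64 genes. Transcripts classed as processed gave 10.9% and 9.65%, those marked for nonsense-mediated decay 5.01% and 4.76%, and those with retained introns 1.68% and 1.56%. None of these shares, nor the count that follows, has a value for all autosomal protein-coding genes beside it. In 15 genes the coding share was under 80% in both pools. The highest factor was among them: in Eif1, the 383-nt non-coding Eif1-202 took 58.2% and 56.6%, and coding transcripts reached 199 TPM in pool 1. On coding transcripts alone Eif1 was 0.489 and 0.425 times Eif1b, the reverse of the gene totals (1.45 and 1.15). In Eef1a1 the coding Eef1a1-201 took 71.1% and 71.0%. In Eif4g2 the 429-nt non-coding Eif4g2-207 took 49.4% and 57.2%, and in Eif4g3 the non-coding Eif4g3-208 took 55.1% and 67.2%.

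Some of the genes are known for isoforms of their own. In Eif4a2 the coding Eif4a2-203 took 56.9% and 59.8%, and Eif4a2-210, marked for nonsense-mediated decay, 29.1% and 27.2%. Eif2a-207, of the same class, took 66.0% and 54.0% of Eif2a. In Eef1d the short Eef1d-207 led with 49.6% and 51.6%, and the 2 transcripts with a long coding sequence, which encode a form known as a transcription factor, took 7.69% and 8.26%. In Eif4g1 the incomplete model Eif4g1-207, of 2799 nt, took 64.8% and 72.2%, and the 6 transcripts with at least 4000 nt of coding sequence took 1.33% in pool 1 and were listed at 0 in pool 2. Eif4e2-204 led Eif4e2 with 68.9% and 75.8%. Eif4h-201 was the only transcript listed for Eif4h, so its share of 100% was fixed by the annotation. Among 32 genes with several transcripts and a TPM of at least 10, the leading transcript was the same in both pools in 29, with no share over all genes given beside it. The exceptions were Eif1a, Eif2b5 and Eif5, each with 2 coding transcripts, whose leading transcript took 50.7% to 59.0% of the gene in pool 1 and 50.9% to 56.3% in pool 2.

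Differences between the pools were small for most of the factors. On the scale of log2(TPM + 1), over the 62 genes whose mean TPM reached 1, the median difference of pool 2 from pool 1 was -0.10, beside -0.07 over all autosomal protein-coding genes at that level. In pool 2, 40 of the 62 were lower (64.5%, beside 58.9% of all) and 22 higher. With TMM scaling of the counts, which is not per length, 32 were lower (51.6%, beside 50.9% of all) and 30 higher, and the median was -0.017. A scale set by the spike-ins put all 62 higher in pool 2, with a median of 0.55 beside 0.59 for all genes. On that scale 4.32% of all genes were lower. Among genes with a mean TPM of at least 10 the SD of the log2 difference was 0.20 over 53 factors and 0.33 over all genes at that level.

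Few of the factors passed 1.5-fold in TPM + 1 between the pools. In pool 2, 2 of 62 (3.23%) were lower by that fold, beside 6.15% of all, and 1 of 62 (1.61%) was higher, beside 3.15% of all. The lower genes were Eef1a2 (a log2 difference of -0.64) and Eif2ak2 (-0.65), and the higher gene was Eif4ebp3 (0.74). Just inside 1.5-fold were Eef2k (-0.55) and Eif2ak4 (0.49). With TMM scaling Eef1a2 stayed past the fold at -0.60, Eif2ak2 did not at -0.55, Eif2ak4 passed it at 0.67, and Eef2k was at 0.03. All of these genes lay below 10 TPM in both pools.

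**Figure D4:**
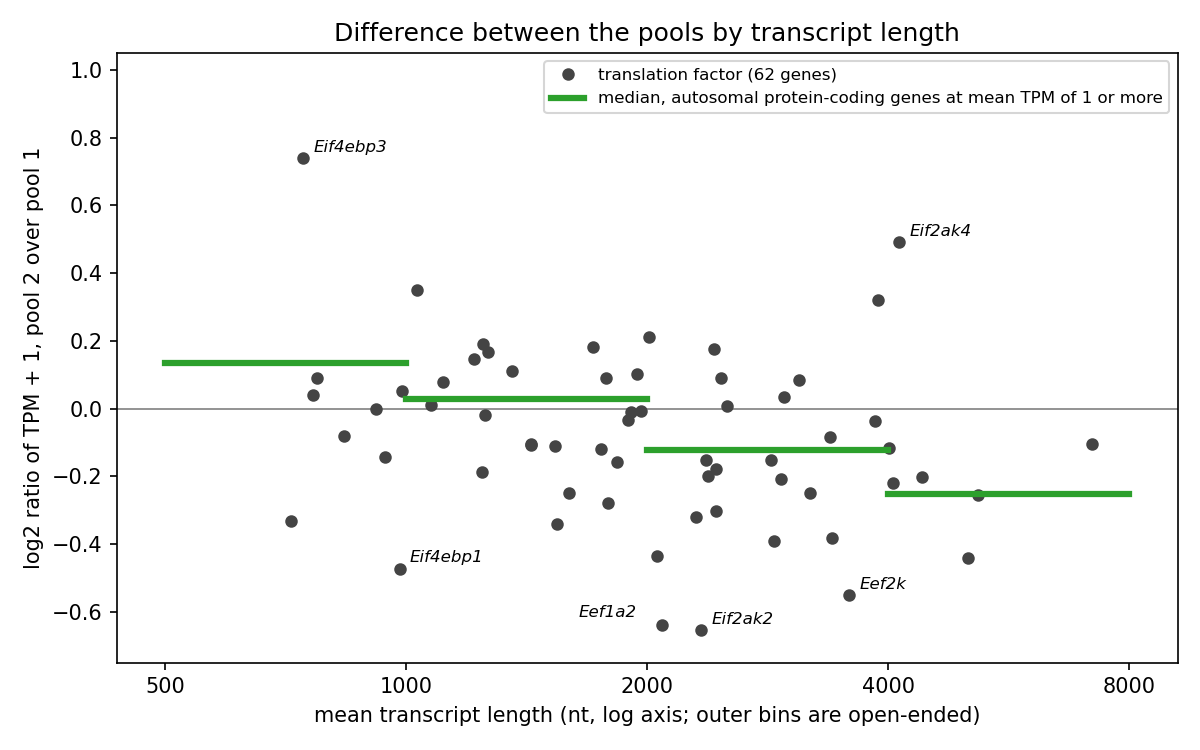
Log2 difference in TPM + 1 of pool 2 from pool 1 against mean transcript length for the 62 factors with a mean TPM of at least 1 (points), with the median of all autosomal protein-coding genes at that level in 4 bins of length (green lines). The medians of all genes run from 0.14 in the shortest bin to -0.25 in the longest, and most long factors lie below 0.

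The difference between the pools moved with transcript length. Over all genes its median was 0.14 below 1000 nt, 0.03 from 1000 to 2000 nt, -0.12 from 2000 to 4000 nt and -0.25 above. The factors had medians of -0.0025 (9 genes), -0.01 (23 genes), -0.18 (23 genes) and -0.20 (7 genes) in the same bins, below those of all genes in the 3 shorter bins and slightly above in the longest. After adjustment for length and expression over all genes, the median of the factors was -0.028, with 34 lower (54.8%, beside 50.1% of all) and 28 higher. Level and length were related too: the median TPM of the factors was 234, 83.8, 26.1 and 14.7 from the shortest to the longest bin. Spearman's rho between mean TPM and length was -0.55 over the 62 factors and -0.37 over all genes at that level, where all points share the same libraries and the same length correction.

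Genes that work beside the factors were described from 3 lists. All 14 genes of termination, recycling and poly(A) binding were detected, with a median of 36.0 and 28.9 TPM and a median log2 difference of -0.13. Paip2, an inhibitor of poly(A)-binding protein, led at 286 and 264 TPM. Of the release factors, Etf1 was at 38.1 and 20.5 TPM, past 1.5-fold lower in pool 2, and Gspt1 at 30.3 and 19.9 TPM. All 11 genes on the list of signalling to initiation and elongation were detected, at a median of 7.18 and 6.06 TPM and a median log2 difference of -0.15. Rheb, the small GTPase that switches on mTOR, was far above the others at 534 and 481 TPM, and Mtor itself was at 21.1 and 15.2 TPM. Rps6kb2, at 6.66 and 4.07 TPM, was past 1.5-fold lower in pool 2.

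Of the 11 targets and phosphatase subunits of the integrated stress response, the programme that follows eIF2 phosphorylation, 9 were detected. Their transcription factors Atf4 (96.6 and 111 TPM) and Ddit3 (93.0 and 103 TPM) and the asparagine synthetase Asns (57.3 and 59.2 TPM) were high, while the other members lay below 10 TPM. Atf3 and Trib3 were below the threshold in both pools, at 0.37 and 0.080 TPM and at 0.24 and 0.060 TPM. The median of the list was 5.67 and 4.70 TPM and its median log2 difference 0.05, with none past 1.5-fold.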

How the data were processed

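The 2 libraries were quantified by the authors from alignments to the transcriptome of mm10 with GENCODE M4, per the file headers and deposited notes. Smart-seq is the linked protocol of pool 2, per the labels, and RNA over 200 nt was sequenced. The aligner, the quantification tool, the strand setting and the protocol of pool 1 remain not given in the sources used here. Expected counts, as deposited, estimate reads and are not normalized. TPM, also deposited, is per length and includes the spike-ins. The deposited percent gives each transcript's part in its gene, and the deposited posterior SD of a count, a score here, reflects the division of shared reads by the authors. The deposited credibility bounds were not used.

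Symbols, gene types, transcript classes and coding sequences came from GENCODE M21 on that assembly, with a symbol for 42462 of 43346 mouse genes. Entries with numeric identifiers (9.67 and 15.86 counts) were left out. A gene was detected when both pools had a TPM of 1 or more. Differences are log2 of TPM with a pseudocount of 1, which shrinks those of low genes, for genes whose mean TPM reached 1. Alternatives were other thresholds and pseudocounts, expected counts rounded to whole numbers and scaled with edgeR 4.0.16 (TMM) or DESeq2 1.42.0 size factors, the spike-ins, and a lowess adjustment for length and expression with a span of 30%, which was tested on simulated data. Sums over protein-coding transcripts were chosen after seeing the data. Coding sequences were aligned with Biopython 1.88. The other tools were R 4.3.3, Python 3.11.15 with statsmodels 0.14.6, scipy 1.17.1, pandas 2.3.3 and numpy 2.4.6, and matplotlib 3.10.9. Poisson intervals are exact at 95%, and they and the limit of 3 counts hold counting error alone, as no molecular identifiers are named.

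Named genes are the 12 with the highest mean TPM, every member of a role list, undetected members and those past 1.5-fold; Eef2k and Eif2ak4 near that fold, and overlapping and partner genes, were named after their values were seen. The members and lists were chosen with earlier results of these data known.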

Additional observations from a re-analysis of the deposited data

Results flagged for a closer look

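Some genes carry a matching symbol but fall outside the rule, and 6 of them had mean expected counts above the 3 that a count of 0 allows. The X-linked Eif1ax, a copy of eIF1A, had 4474.5 (52.1 and 45.9 TPM), above both Eif1a values. The genes of the eIF2 gamma subunit had 1888.5 for the Y-linked Eif2s3y (72.1 and 82.3 TPM) and 1323 for the X-linked Eif2s3x (19.4 and 14.8 TPM). The pseudogenes had far fewer, 23.4 for Eif4a-ps4, 5.44 for Eif1-ps1 and 3.15 for Eif5al3-ps.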

How the results depend on the processing

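Each pool alone gave 62 factors detected (62 to 62), and a threshold of 5 TPM left 56. The median level was 35.2 to 41.3 TPM in single pools and 32.5 TPM on protein-coding transcripts. The median log2 difference was -0.017 with TMM scaling, -0.022 with DESeq2 size factors, -0.028 after adjustment for length and expression, and turned to 0.55 on the spike-in scale. The count of factors 1.5-fold lower in pool 2 was 0 with a pseudocount of 5, 0 at a mean TPM of at least 10, 1 with TMM, 1 with DESeq2 and 0 on the spike-in scale. The count higher was 2 with a pseudocount of 0.1, 0 with a pseudocount of 5, 0 at a mean TPM of at least 10, 2 with TMM, 2 with DESeq2 and 28 on the spike-in scale. The share of all genes past the fold is given only for TPM as reported, so the counts at other settings have nothing beside them. On the spike-in scale all genes moved up, with a median of 0.59 and 4.32% lower in pool 2. Causes were not tested. Eef1a2 made up 1.81% of its pair, 1.43% to 2.19% in single pools, 2.67% in expected counts and 2.52% on protein-coding transcripts.

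The share of the gene with the highest TPM in its group moved in expected counts, which are not per length. The share of Eef1a1 went from 98.2% to 97.3%, Eef1b2 from 44.3% to 30.5%, Eef2 from 62.4% to 74.8%, Eef1akmt1 from 75.2% to 72.6%, Eif4a2 from 65.8% to 70.5%, Eif4e from 58.8% to 73.8%, Eif4g2 from 69.9% to 58.6% and Eif4ebp1 from 38.6% to 21.5%. The share of Eif4h went from 78.5% to 69.3%, Eif3k from 22.7% to 10.97%, Eif2s2 from 68.0% to 60.02%, Eif2b2 from 29.4% to 21.4%, Eif2ak1 from 61.7% to 65.9%, Eif1 from 37.2% to 16.9% and Eif5a from 96.6% to 86.7%. In 5 of these groups another gene led in expected counts: Eef1g (37.96%) over Eef1b2, Eif4enif1 (47.3%) over Eif4ebp1, Eif3a (12.1%) over Eif3k, Eif2b1 (24.3%) over Eif2b2 and Eif5 (41.7%) over Eif1. On protein-coding transcripts the shares were 97.5% for Eef1a1, 29.5% for Eef1b2, 69.1% for Eef2, 81.1% for Eef1akmt1, 59.3% for Eif4a2, 66.2% for Eif4g2, 22.4% for Eif2b2, 66.1% for Eif2ak1 and 18.03% for Eif1, and Eif2b1 and Eif1b had the higher means in the groups of Eif2b2 and Eif1. The ratio of the highest to the lowest eIF3 subunit was 21.7, 21.9 to 22.1 in single pools, 5.57 in expected counts and 29.8 on protein-coding transcripts.

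With 1 group of 2 pools there was no test, and no paired analysis was possible because all samples belong to the same group. Depth limits the genes under 5 TPM, where few reads carry a value, and estimated divisions among transcripts add an error that the counting intervals do not hold.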
